A study of Mus musculus with 6 samples.

Results

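The intercalated disc joins the ends of neighbouring cardiomyocytes, and 10 genes of its junctions were described here in the infarcted mouse heart. They are the connexin genes Gja1, Gja5 and Gjc1, the desmosomal genes Dsp, Pkp2, Jup, Dsg2 and Dsc2, and the adherens junction genes Cdh2 and Ctnna3. The members were chosen by name, and all 10 were found in a count table of 38293 genes. RNA was sequenced from heart tissue of 3 WT and 3 Zeb2 cKO mice, with 1 library for each mouse, 14 days after myocardial infarction (MI) by permanent occlusion of the left anterior descending coronary artery. All mice were on a backcrossed C57BL/6J background, and the methods give adult males, of 8 to 9 weeks in a general passage and of 8 to 10 weeks for this mouse line. The controls, labelled WT, are described in the methods as Zeb2 fl/fl, so both genotypes carried floxed Zeb2 alleles and both were infarcted. Zeb2 cKO mice also carried a Cre recombinase driven by the Myh6 promoter, which is active in cardiomyocytes. A group with Cre alone was not analysed here, so an effect of Cre and an effect of Zeb2 deletion cannot be told apart. By its labels the tissue was border region of the infarct, but by the methods it was remote zone. The comparison asks whether expression in the infarcted heart depends on Zeb2 in cardiomyocytes.

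Cardiomyocytes are coupled at the disc by 3 kinds of structure. Gap junctions are channels built from connexins that pass ions between cells and let the action potential spread. Desmosomes tie the intermediate filaments of adjacent cells together, with the cadherins desmoglein and desmocollin outside the cell and plakoglobin, plakophilin and desmoplakin inside it. Adherens junctions anchor the contractile filaments through N-cadherin and the catenins. Inherited defects in desmosomal genes are a known cause of arrhythmogenic cardiomyopathy, and rearranged Gja1 protein is a known feature of the infarct border.

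Expression is given as CPM (counts scaled to the size of the library), with TMM normalization between libraries. Total counts were between 37.3 M and 51.1 M per library, of which 60.5% to 67.0% fell on mitochondrially encoded genes. Zeb2, a zinc finger repressor and the targeted gene, was at 61.3, 116.0 and 71.9 CPM in WT replicates 1, 2 and 3 and at 59.55, 72.57 and 66.46 CPM in Zeb2 cKO replicates 1, 2 and 3. These groups overlapped, with a log2 fold change of -0.33 (edgeR adjusted p = 0.957) that was -0.0058 without WT replicate 2, where the WT mean was 66.6 CPM and the Zeb2 cKO mean 66.19 CPM. Bulk RNA holds every cell type, and Cre acts in cardiomyocytes. The cardiomyocyte markers were abundant in all 6 libraries, with a sum over 20 genes of 40330 to 78690 CPM in WT and of 64300 to 77880 CPM in Zeb2 cKO. WT replicate 2 stood apart: it was the lowest library for 19 of the 20 cardiomyocyte markers and the highest for all 16 fibroblast and matrix markers and for 14 of 15 macrophage markers. The genotype comparisons of the 10 genes are given with and without this library.

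Levels of different genes were compared as TPM, a share of all transcripts in which counts are divided by the exon length of the gene. Dsp, which encodes the desmosomal linker desmoplakin, was the most abundant member at 809.9 ± 216.5 TPM (mean ± SD of the 6 libraries, as in the values that follow), and it made up 49.8% of the summed TPM of the 10 genes. Gja1, the main ventricular connexin (connexin 43), followed at 184.2 ± 25.2 TPM. Cdh2, which encodes N-cadherin, was at 172.5 ± 33.2 TPM. Pkp2, the plakophilin of heart muscle, was at 159.7 ± 29.1 TPM, and Jup, which encodes plakoglobin, was at 133.2 ± 37.4 TPM. These 4 genes formed a middle tier whose neighbours overlapped in range. Dsc2, the cardiac desmocollin, was at 49.8 ± 13.3 TPM, and Ctnna3, the alpha-T-catenin found mainly in heart, was at 47.7 ± 14.7 TPM. Dsg2, the cardiac desmoglein, was at 33.8 ± 11.1 TPM. Gjc1, or connexin 45, a connexin of the conduction system, was at 28.9 ± 6.01 TPM. Gja5, or connexin 40, found in atrium, conduction system and arterial endothelium, was the lowest at 7.35 ± 2.02 TPM. In this order, neighbours were free of overlap in only 3 places: between Dsp and Gja1, between Jup and Dsc2, and between Gjc1 and Gja5. Within a library the order was steadier than these ranges, since Cdh2 lay above Pkp2 and Pkp2 above Jup in 6 of 6 libraries, whereas Dsc2 lay above Ctnna3 in 2 of 6.

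**Figure D1:**
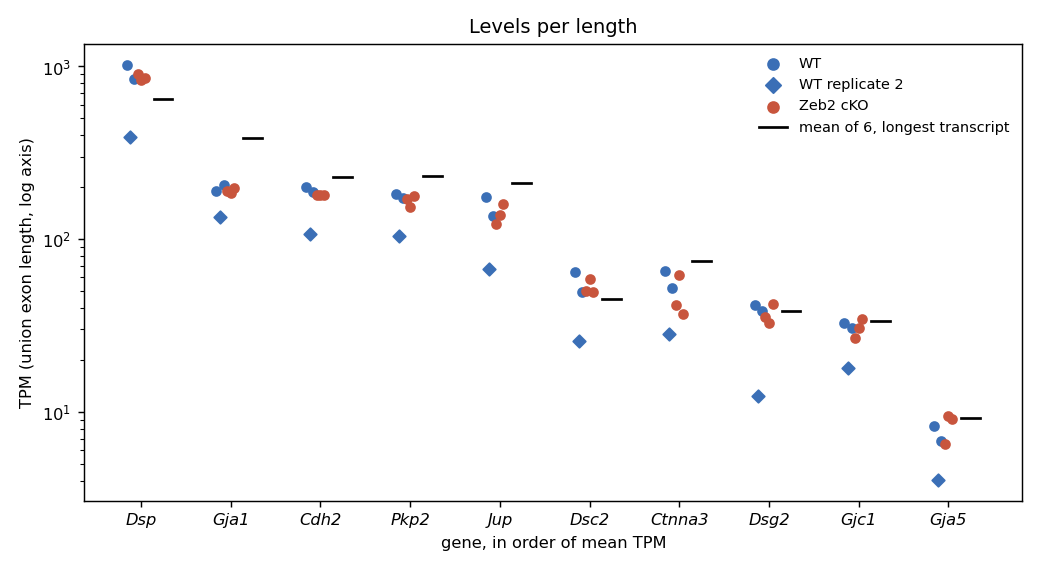
Level of each of the 10 genes in TPM on a log axis, with the genes in order of their mean over 6 libraries; points are libraries (blue WT, red Zeb2 cKO), the blue diamond is WT replicate 2, and black bars give the mean when the longest transcript is used as the length. Dsp stands above the other 9 genes and Gja5 below them, and the diamond is the lowest point for every gene.

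The order depends in part on the length chosen. With the longest annotated transcript as the length, Gja1 stood at 386.9 TPM, Pkp2 at 232.5, Cdh2 at 228.5, Jup at 212.7 and Ctnna3 at 74.48, while Dsp was still first at 648.2 TPM and Gja5 still last at 9.156 TPM. Among other disc genes, Des, which encodes the intermediate filament desmin held by desmosomes, was at 1698 TPM. Ctnnb1, which encodes beta-catenin, the relative of plakoglobin, was at 443.5 ± 35.9 TPM, and Ctnna1, the widely expressed alpha-catenin, was at 283.8 ± 60.7 TPM. Summed over the junction, the 5 desmosomal genes were at 1486, 599.6 and 1246 TPM in WT and at 1281, 1222 and 1283 TPM in Zeb2 cKO. The 3 connexin genes summed to 231.4, 156.9 and 243.5 TPM in WT and to 224.7, 225.5 and 240.9 TPM in Zeb2 cKO. Cdh2 and Ctnna3 together were at 266.1, 135.0 and 239.5 TPM in WT and at 220.8, 241.7 and 218.0 TPM in Zeb2 cKO. For each of the 3 junctions, the Zeb2 cKO sums lay within the range of the WT sums, a range that WT replicate 2 set at its lower end. Against WT replicates 1 and 3 alone, all 3 Zeb2 cKO desmosomal sums still lay within the WT range save that of replicate 2, whereas 2 of the 3 connexin sums and 2 of the 3 adherens junction sums lay below it.

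For Gja1 and Gjc1 the genotypes overlapped and the difference was smaller than its standard error. Gja1 (ENSMUSG00000050953, chr10:56377330-56402513, plus strand, GRCm38) was at 200.2, 158.1 and 222.0 CPM in WT replicates 1, 2 and 3 (mean 193.5 with an SD of 32.5, n = 3). The Zeb2 cKO libraries, in the same order, were at 205.7, 191.7 and 198.2 CPM (198.5 ± 6.99, n = 3). All 3 Zeb2 cKO values lay inside the WT range, whose lower end was WT replicate 2. Zeb2 cKO replicates 2 and 3 lay below both other WT libraries. The log2 fold change of Gja1, here and below Zeb2 cKO against WT from edgeR's quasi-likelihood test, was 0.04 (standard error 0.167, adjusted p = 0.983), with a 95% interval from -0.36 to 0.43, and it was -0.09 without WT replicate 2. Gjc1 (ENSMUSG00000034520, chr11:102799579-102819700, minus strand) was at 16.86, 10.19 and 15.99 CPM in WT and at 14.07, 15.53 and 16.95 CPM in Zeb2 cKO. WT replicate 2 was again the low value, and the other 5 libraries spanned 14.07 to 16.95 CPM. The log2 fold change of Gjc1 was 0.11 with and -0.08 without WT replicate 2.

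Gja5 (ENSMUSG00000057123, chr3:96904693-97077416, plus strand) was at 4.859, 2.643 and 4.062 CPM in WT (3.86 ± 1.12, n = 3) and at 3.937, 5.508 and 5.099 CPM in Zeb2 cKO (4.85 ± 0.815, n = 3). All 3 Zeb2 cKO libraries were above the WT mean, but Zeb2 cKO replicate 1 lay below WT replicates 1 and 3. Its log2 fold change of 0.33 (standard error 0.253, edgeR adjusted p = 0.957) was the largest of the 10 genes, with a 95% interval from -0.27 to 0.93. Gja5 was also the only member that kept a positive value without WT replicate 2, at 0.12. Without WT replicate 1 its value was 0.53, and these were the ends of its range when 1 library was left out. Between 116 and 274 reads were counted for Gja5 in a library, the fewest of the 10. The exons of Gja5 overlap those of Gpr89 on the opposite strand over 2.87% of their bases, and 27.7% of its longest transcript is near-identical to transcripts of Gpr89 or Zfp697, so the count of Gja5 is less certain than the others. The summed level of 12 arterial endothelial markers was 318.5 to 390.8 CPM in WT and 316.7 to 346.7 CPM in Zeb2 cKO. The summed level of 15 atrial and conduction system markers that could be tested was 354.6 to 746.3 CPM in WT and 193.3 to 237.2 CPM in Zeb2 cKO, without overlap. Nppa, the atrial natriuretic peptide gene, made up most of that sum, at 337.2, 716.5 and 309.4 CPM in WT and at 188.9, 131.5 and 188.0 CPM in Zeb2 cKO. The other 14 markers summed to 29.78 to 48.96 CPM in WT and to 38.13 to 61.83 CPM in Zeb2 cKO, and 11 of the 15 markers had a log2 fold change above 0 (10 without WT replicate 2). Zeb2 cKO replicate 2, the highest library for Gja5, was also the highest for Myl7, the atrial myosin light chain, at 7.26 CPM against 0.114 to 1.23 CPM in the other libraries. Nppa and Myl7 are named after their values were seen. The part of these cell types in the level of Gja5 was not tested.

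**Figure D2:**
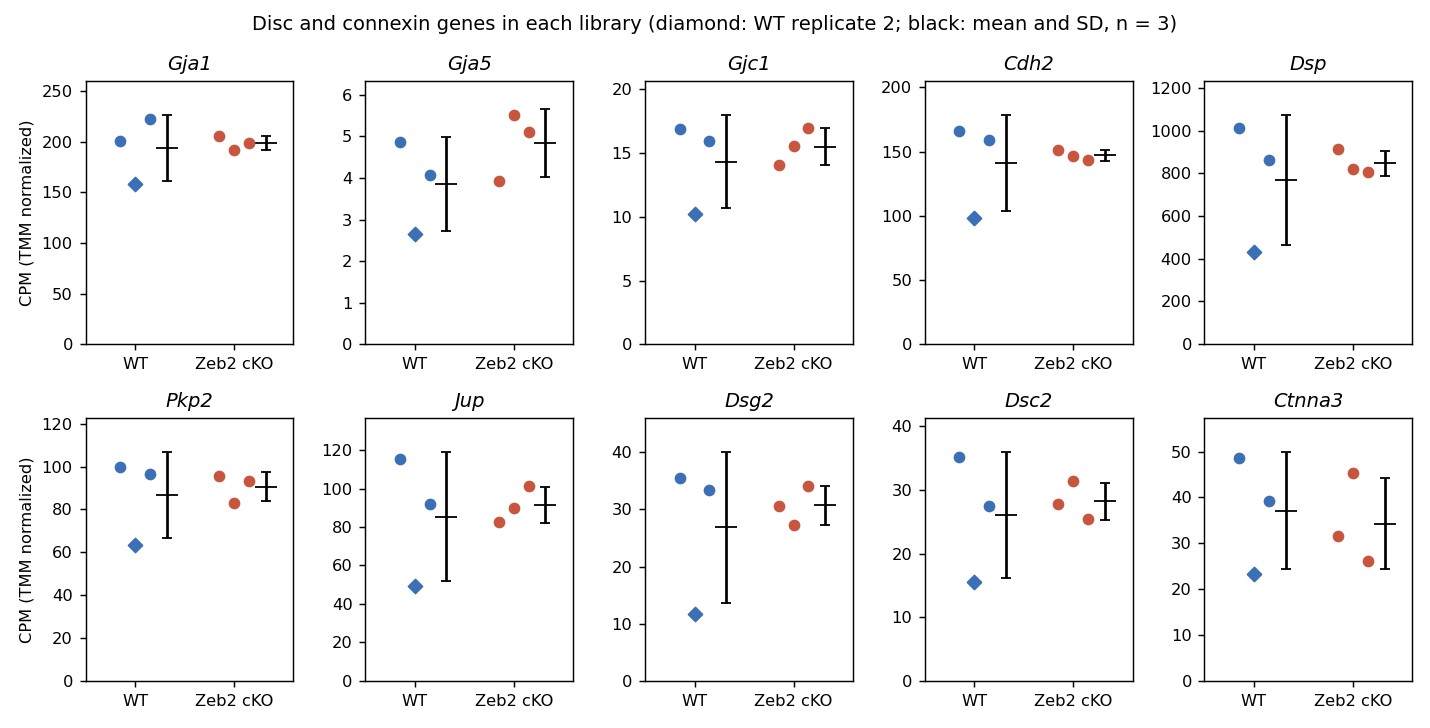
Expression of each of the 10 genes in CPM (vertical axes from 0), by genotype; points are single libraries, the diamond is WT replicate 2, and black marks give the mean and SD of 3 libraries. In each panel the genotypes overlap and WT replicate 2 is the lowest point.

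Of the desmosomal genes, Dsp, Jup, Dsg2 and Dsc2 gave the widest spread among the 3 WT hearts. Dsp (ENSMUSG00000054889, chr13:38151294-38198577, plus strand) was at 1014, 430.7 and 861.2 CPM in WT (768.7 ± 302.5, n = 3) and at 913.9, 817.9 and 807.6 CPM in Zeb2 cKO (846.5 ± 58.6, n = 3). The log2 fold change of Dsp was 0.14 (standard error 0.321, edgeR adjusted p = 0.963). Without WT replicate 2, at 45.9% of the mean of the other WT libraries, it was -0.14. Pkp2 (ENSMUSG00000041957, chr16:16213318-16272712, plus strand) was at 99.77, 63.48 and 96.69 CPM in WT and at 95.66, 82.92 and 93.31 CPM in Zeb2 cKO. The WT replicates other than 2 lay above all 3 Zeb2 cKO libraries for Pkp2, by a margin of less than the spread among the latter. Jup (ENSMUSG00000001552, chr11:100368958-100397763, minus strand) was at 115.3, 49.20 and 91.87 CPM in WT and at 82.79, 89.97 and 101.3 CPM in Zeb2 cKO, so that its Zeb2 cKO values lay on both sides of WT replicate 3. The log2 fold change of Jup was 0.10 with and -0.18 without WT replicate 2.

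The desmosomal cadherins were lower in level, and their genotypes overlapped as well. Dsg2 (ENSMUSG00000044393, chr18:20558074-20604521, plus strand) was at 35.44, 11.71 and 33.44 CPM in WT (26.9 ± 13.2, n = 3) and at 30.62, 27.31 and 34.11 CPM in Zeb2 cKO (30.7 ± 3.40, n = 3). WT replicate 2 stood lowest for this gene, at 34.0% of the mean of the other WT libraries, and Dsg2 had the widest 95% interval of the log2 fold change, from -0.72 to 1.10 around 0.19. Dsc2 (ENSMUSG00000024331, chr18:20030633-20059554, minus strand) was at 35.15, 15.52 and 27.53 CPM in WT and at 27.84, 31.34 and 25.46 CPM in Zeb2 cKO. Without WT replicate 2 the log2 fold changes of Dsg2 and Dsc2 were -0.16 and -0.15.

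The adherens junction genes were Cdh2 and Ctnna3, and among Zeb2 cKO hearts Ctnna3 varied more than Cdh2. Cdh2 (ENSMUSG00000024304, chr18:16588877-16809246, minus strand) was at 165.9, 98.21 and 158.8 CPM in WT (141.0 ± 37.2, n = 3) and at 151.5, 146.2 and 143.1 CPM in Zeb2 cKO (147.0 ± 4.26, n = 3). Its coefficient of variation was 2.90% in Zeb2 cKO and 26.4% in WT, but 3.12% in WT without replicate 2. The log2 fold change of Cdh2 was 0.06 (standard error 0.215, edgeR adjusted p = 0.980) and, without WT replicate 2, -0.14. Ctnna3 (ENSMUSG00000060843, chr10:63430098-65003667, plus strand) was at 48.64, 23.38 and 39.32 CPM in WT (37.1 ± 12.8, n = 3) and at 31.52, 45.28 and 26.09 CPM in Zeb2 cKO (34.3 ± 9.89, n = 3). Ctnna3 was the only member with a negative log2 fold change over all 6 libraries, -0.11 (standard error 0.309, edgeR adjusted p = 0.967, 95% interval -0.85 to 0.62). Its Zeb2 cKO libraries varied more than those of the other 9 genes, with a coefficient of variation of 28.9%, against 34.4% in WT and 14.98% in WT without replicate 2. Of the 10 genes, none had a larger coefficient of variation in Zeb2 cKO than in WT with all libraries, and 5 did without WT replicate 2 (Gja5, Gjc1, Pkp2, Dsg2 and Ctnna3). Differences in spread between genotypes were not tested.

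None of the 10 genes passed an adjusted p of 0.05 in edgeR, none had an unadjusted p under 0.05, and the genotypes overlapped in CPM for all 10. Among the 14746 genes tested, the share past the adjusted threshold was 0.0% in either direction. The share with an unadjusted p under 0.05 was 0.861% lower and 1.04% higher in Zeb2 cKO, and the share without overlap was 2.97% lower and 3.39% higher. Exact permutation tests of the 10 genes (two-sided, n = 3 and 3) gave p between 0.3 for Gja5 and 1.0 for Cdh2 and Pkp2, where 0.1 is the smallest p this design allows. The 95% intervals give the sizes left possible. For Gja1 the interval ran from -0.36 to 0.43, for Cdh2 from -0.45 to 0.57 and for Pkp2 from -0.40 to 0.53 on the log2 scale, whereas for Dsp and Jup it reached 0.90 and 0.80. A log2 difference of 1 thus lay outside the interval of each member other than Dsg2.

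The sign of these small differences turned on 1 library. With all 6 libraries, 9 of the 10 genes had a log2 fold change above 0, against 48.6% of all tested genes above and 51.4% below 0, and their median was 0.105, against -0.0069 over all tested genes. Without WT replicate 2, 9 of the 10 were below 0, against 49.1% below and 50.9% above 0 of all 14966 genes then tested, with a median of -0.143 against 0.0025. The 20 cardiomyocyte markers turned likewise, with 18 above 0 over all 6 libraries and 18 below 0 without WT replicate 2. In that fit the adjusted p from edgeR was 0.9997 for each of the 10 genes, and none had an unadjusted p under 0.05, beside 1.08% of genes lower and 1.55% higher. Cdh2 and Pkp2 were then lower in all 3 Zeb2 cKO libraries than in both WT libraries, with log2 fold changes of -0.14 and -0.11. In the same 5 libraries 7.46% of all tested genes were lower and 8.07% higher in Zeb2 cKO without overlap. Gja5 alone kept its sign in this fit among the 9 positive genes, and Ctnna3, already negative, was at -0.36.

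**Figure D3:**
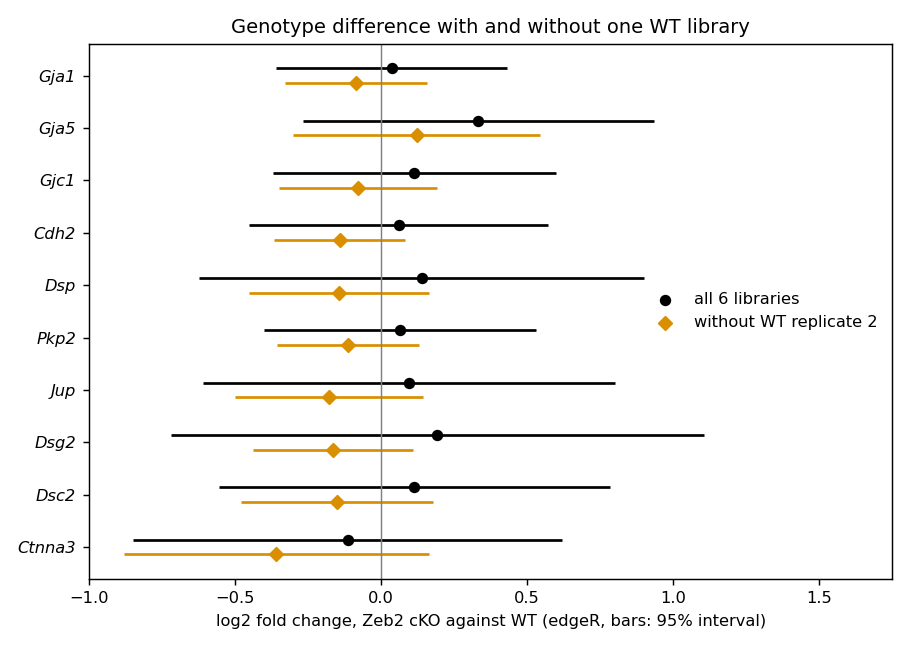
Log2 fold change of each gene, Zeb2 cKO against WT, with its 95% interval from edgeR; black circles use all 6 libraries and orange diamonds leave out WT replicate 2. Each interval includes 0, and 8 of the 10 estimates change sign between the fits.

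The members shared a pattern over the libraries. WT replicate 2 was the lowest of the 6 libraries for 10 of the 10 genes, against 34.6% of all tested genes. Averaged over the 10 genes, log2 CPM centred on the 6 libraries was 0.29, -0.67 and 0.14 in WT and 0.04, 0.12 and 0.08 in Zeb2 cKO. The mean over the 20 cardiomyocyte markers was 0.29, -0.71 and 0.12 in WT and 0.23, 0.13 and -0.06 in Zeb2 cKO. The fibroblast and matrix markers ran the other way, at -0.50, 1.70 and -0.16 in WT and -0.63, -0.42 and 0.00 in Zeb2 cKO (0.0021 in Zeb2 cKO replicate 3). In each WT library the member mean thus lay close to the cardiomyocyte mean and on the other side of 0 from the fibroblast mean. In bulk tissue, fewer cardiomyocytes and less RNA per cardiomyocyte cannot be told apart.

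Other cell types were read from marker lists in the same libraries. The summed fibroblast and matrix markers were at 2130 to 11190 CPM in WT, the highest value being WT replicate 2, and at 2078 to 2925 CPM in Zeb2 cKO. The 15 macrophage markers summed to 249.7 to 990.3 CPM in WT, again highest in WT replicate 2, and to 302.2 to 321.4 CPM in Zeb2 cKO. The 14 endothelial markers were at 616.8 to 823.8 and 719.1 to 850.1 CPM, and the 12 smooth muscle and pericyte markers were at 1214 to 1801 and 1628 to 1825 CPM. Epithelial and mesothelial markers, which matter here because epithelia also build desmosomes, summed over the 7 that could be tested to 6.43 to 12.2 CPM in WT and 8.05 to 10.6 CPM in Zeb2 cKO, and the basal keratin Krt5 was at 0 in every library. The 5 lymphocyte markers that could be tested were at 11.1 to 41.9 and 13.1 to 14.0 CPM. The part of these cell types in the levels of the junction genes was not tested.

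To take out the shared component, the count of each gene was set against the mean of the 20 cardiomyocyte markers in the same library, on the log2 scale. The spread over the 6 libraries was then smaller for 9 of the 10 genes, against 21.4% of all tested genes. The range of Dsp went from 1.24 to 0.257, that of Dsc2 from 1.18 to 0.278, and that of Cdh2 from 0.757 to 0.312. Gja1 was the exception, with a range of 0.490 in CPM and 0.655 relative to the markers. In WT replicate 2, the log2 difference of Gja1 from the mean of the other WT libraries was -0.42 in CPM and 0.49 relative to the markers, whereas that of Dsg2 was -1.56 in CPM and still -0.65 relative to the markers.

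**Figure D4:**
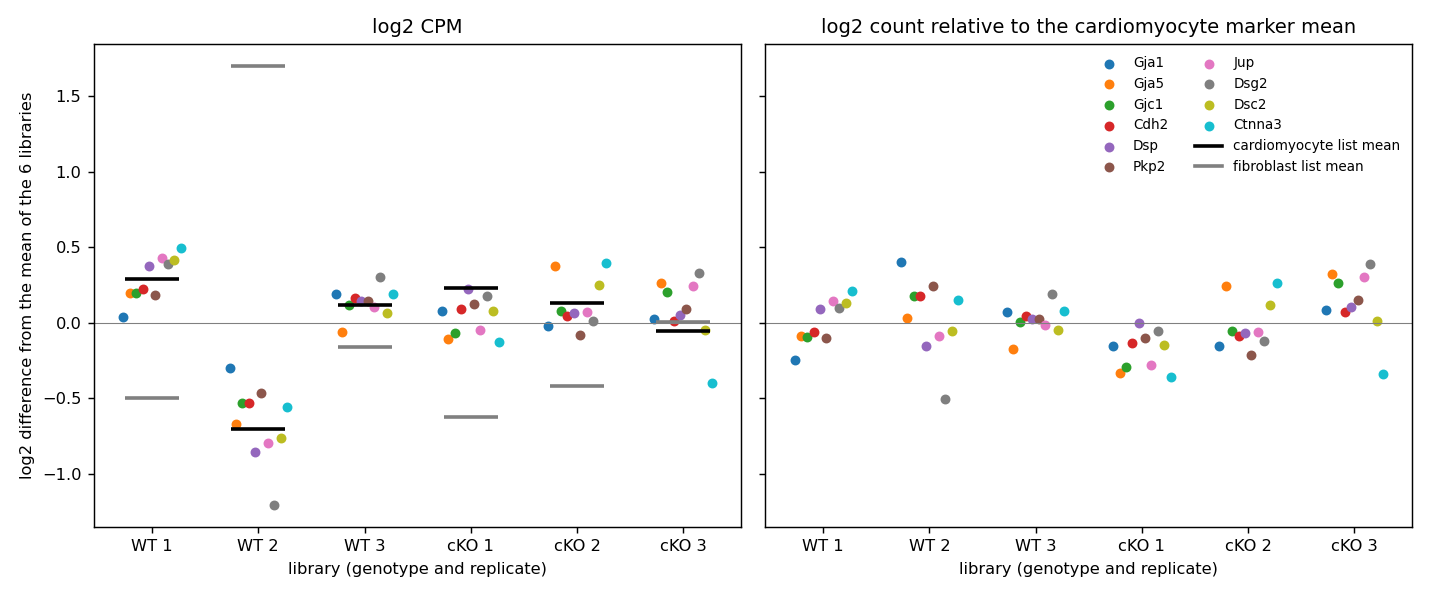
Each gene in each library as its log2 difference from its own mean over 6 libraries, in CPM (left) and relative to the cardiomyocyte marker mean (right); black and grey bars on the left are the means of the cardiomyocyte and the fibroblast marker lists. On the left all 10 genes and the cardiomyocyte mean lie below 0 in WT replicate 2 while the fibroblast mean is at 1.70; on the right the genes of that library lie on both sides of 0.

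Relative to the cardiomyocyte markers, the genotypes overlapped for all 10 genes, beside 1.21% of tested genes without overlap and lower in Zeb2 cKO and 1.31% without overlap and higher. The differences, Zeb2 cKO minus WT on the log2 scale, lay between -0.29 for Ctnna3 and 0.16 for Gja5, and exact permutation p ranged from 0.3 for Cdh2 to 0.9. Ctnna3 was at -4.88, -4.94 and -5.01 in WT, a narrow band, and at -5.44, -4.82 and -5.43 in Zeb2 cKO, where replicates 1 and 3 lay below the WT band and replicate 2 above it. Its difference was the same, -0.29, without WT replicate 2 (exact permutation p = 0.4 with all 6 libraries). It moved to -0.495 without Zeb2 cKO replicate 2 and to -0.185 without Zeb2 cKO replicate 1. With the median of the markers in place of their mean, all 3 Zeb2 cKO values of Ctnna3 lay below the WT values, beside 0.977% of all tested genes, with a difference of -0.35. Dsp was at -0.49, -0.73 and -0.56 in WT and at -0.59, -0.65 and -0.48 in Zeb2 cKO, a difference of 0.02. Gja1 was at -2.84, -2.18 and -2.51 in WT and at -2.74, -2.74 and -2.50 in Zeb2 cKO. Its difference of -0.15 was 0.01 without WT replicate 2. The Zeb2 cKO values of Gja1 thus lay inside the range of the WT values on this scale too, a range whose upper end was WT replicate 2. Against WT replicates 1 and 3 alone, Zeb2 cKO replicate 3 lay just above the range.

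The balance of partner genes within a junction was compared by 8 ratios of counts in the same library, which do not depend on the scaling of the library. Gja5 amounted to 2.43%, 1.68% and 1.84% of the count of Gja1 in WT and to 1.92%, 2.88% and 2.58% in Zeb2 cKO, a log2 difference of 0.31 (exact permutation p = 0.2). With 1 library left out it ran from 0.18 (without Zeb2 cKO replicate 2) to 0.48 (without Zeb2 cKO replicate 1). Gjc1 amounted to 8.43%, 6.45% and 7.21% of Gja1 in WT and to 6.85%, 8.11% and 8.56% in Zeb2 cKO (log2 difference 0.09, exact permutation p = 0.6). Gja1 thus took most of the reads of the 3 connexins in every library of both genotypes. Among the desmosomal cadherins, Dsc2 was counted at 99.2%, 132.5% and 82.3% of Dsg2 in WT and at 90.9%, 114.8% and 74.6% in Zeb2 cKO. Pkp2 was at 9.84%, 14.7% and 11.2% of Dsp in WT and at 10.5%, 10.1% and 11.6% in Zeb2 cKO. In WT replicate 2 both ratios were at their highest of the 6 libraries.

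Plakoglobin can replace beta-catenin at the adherens junction, and the ratio of their genes was among the more variable. Jup was at 48.0%, 21.8% and 37.3% of Ctnnb1 in WT and at 35.9%, 36.0% and 42.0% in Zeb2 cKO, a log2 difference of 0.16 (exact permutation p = 0.9) that was -0.16 without WT replicate 2. Jup was at 69.5%, 50.1% and 57.9% of Cdh2 in WT and at 54.7%, 61.5% and 70.8% in Zeb2 cKO. The alpha-catenins bind the cadherin complex to actin, and Ctnna3 was at 22.0%, 19.5% and 19.8% of Ctnna1 in WT and at 15.6%, 23.0% and 13.6% in Zeb2 cKO. The log2 value of this ratio had an SD of 0.096 in WT and of 0.394 in Zeb2 cKO, and its difference between genotypes was -0.27 (exact permutation p = 0.4). That difference was -0.487 without Zeb2 cKO replicate 2 and -0.108 without Zeb2 cKO replicate 3. Ctnna3 was at 29.3%, 23.8% and 24.8% of Cdh2 in WT and at 20.8%, 31.0% and 18.2% in Zeb2 cKO, with the same 2 Zeb2 cKO libraries below the WT range. Genotypes overlapped in all 8 ratios, and the exact permutation p-values ran from 0.2 to 0.9 before any adjustment.

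**Figure D5:**
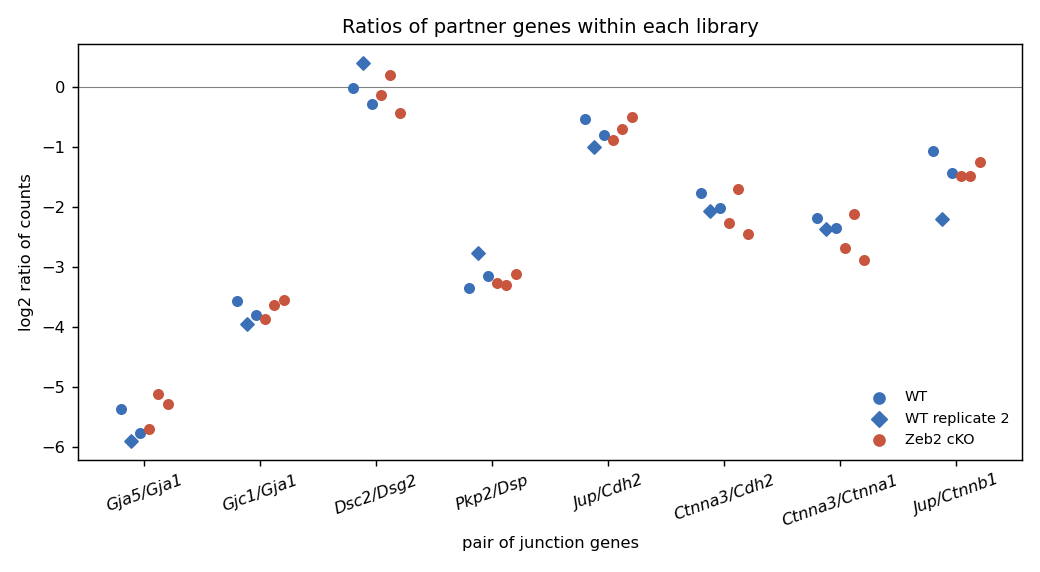
Log2 ratio of the counts of 8 pairs of junction genes in each library (blue WT, red Zeb2 cKO, blue diamond WT replicate 2). The genotypes overlap in each pair, and for Ctnna3/Ctnna1 the 3 WT points lie close together while Zeb2 cKO replicates 1 and 3 lie below them and replicate 2 above.

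Further disc genes were read in 5 lists of 101 genes in all, of which 72 were tested, and none passed an adjusted p of 0.05 in edgeR. Of 20 other connexins and pannexins, 4 were expressed enough to be tested, and all 4 had a log2 fold change below 0 (median -0.465, and -0.279 without WT replicate 2) with an unadjusted p above 0.05. Gja4, or connexin 37, an endothelial connexin, was at 5.124, 6.061 and 5.312 CPM in WT and at 4.097, 5.116 and 4.857 CPM in Zeb2 cKO, without overlap, and its log2 fold change was -0.23 (standard error 0.148, edgeR adjusted p = 0.957). Panx1, a channel protein related to the connexins in shape, was at 1.699, 5.993 and 2.318 CPM in WT and at 1.259, 2.028 and 2.605 CPM in Zeb2 cKO, and its log2 fold change was -0.77 with and -0.03 without WT replicate 2. Connexin genes of liver, skin and neurons such as Gjb1, Gjb6 and Gjd2 had no count in any library.

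Of 13 other desmosomal genes, 3 were tested (Pkp4, Ppl and Perp), and all 3 had a log2 fold change above 0, from 0.07 to 0.61, but only Ppl did without WT replicate 2. The desmogleins and desmocollins other than Dsg2 and Dsc2 were too low to test, and Dsg3 had no count. Ppl, which encodes periplakin, had the value of 0.61 (standard error 0.447, edgeR adjusted p = 0.957) at levels of 0.651 to 2.18 CPM. Pkp4 was at 71.07, 31.92 and 57.58 CPM in WT and at 59.47, 65.86 and 61.17 CPM in Zeb2 cKO, with the same low WT replicate 2 as the 10 members. Of 18 adherens junction genes, 15 were tested, 10 with a log2 fold change above 0 and 5 below, with a median of 0.02. The count was 6 above and 9 below without WT replicate 2. Cdh11, a cadherin of mesenchymal cells, ran opposite to Cdh2 over the libraries, at 8.682, 34.79 and 10.47 CPM in WT and at 8.593, 11.22 and 10.74 CPM in Zeb2 cKO. Cdh3, another classical cadherin at low level, had a log2 fold change of -0.77 with all libraries and of 0.92 without WT replicate 2. Afdn, which encodes the nectin-binding afadin, and Cdh13, or T-cadherin, had log2 fold changes of 0.20 and 0.19, and of 0.04 for each without WT replicate 2.

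All 30 scaffold and linker genes were tested, 20 with a log2 fold change above 0 and 10 below (median 0.07). The count turned to 11 above and 19 below (median -0.05) without WT replicate 2. Nexn, which encodes the actin-binding protein nexilin, was the only one of the 72 tested genes of the 5 lists with an unadjusted p under 0.05. Over all tested genes the share was 0.861% lower and 1.04% higher. Without WT replicate 2 there were 5 such list genes, beside 1.08% lower and 1.55% higher of all genes then tested. Nexn was at 64.17, 63.21 and 73.51 CPM in WT and at 53.00, 55.01 and 54.47 CPM in Zeb2 cKO, without overlap. Its log2 fold change was -0.31 (standard error 0.117, edgeR unadjusted p = 0.0347, adjusted p = 0.957) and it was -0.34 without WT replicate 2 (edgeR unadjusted p = 0.00898, adjusted p = 0.9997). Cxadr, which encodes the virus receptor CAR of the disc, was at 31.04, 30.44 and 35.18 CPM in WT and at 44.82, 34.45 and 38.24 CPM in Zeb2 cKO, a log2 fold change of 0.28 (standard error 0.138, edgeR adjusted p = 0.957). Parva and Itgb1bp2, which belong to integrin linkage, were at -0.27 and 0.32, and at 0.02 and 0.09 without WT replicate 2.

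All 20 genes of the ion channel complexes at the disc were tested, 13 with a log2 fold change above 0 and 7 below (median 0.05). Without WT replicate 2 the count turned to 6 above and 14 below (median -0.09). Scn4b, a beta subunit of the cardiac sodium channel, was at 29.31, 14.58 and 31.04 CPM in WT and at 43.89, 48.63 and 22.87 CPM in Zeb2 cKO. Its log2 fold change was 0.62 (standard error 0.37, edgeR adjusted p = 0.957), or 0.35 without WT replicate 2, and Zeb2 cKO replicate 3 lay below WT replicates 1 and 3. Tmem65, a disc protein needed for the placement of Gja1, was at 0.23, and the scaffold genes Cask and Dlg1 were at -0.26 and -0.14. These values were 0.06, -0.06 and -0.10 without WT replicate 2.

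The genes whose pattern was nearest to the mean of the 10 members were sought among 12317 genes with a mean of at least 1 CPM, by the root mean square difference of centred log2 CPM over the 6 libraries. They were Eif4g1 at 0.024, Bicd2 at 0.029 and Tomm40 at 0.032, which encode a translation initiation factor, a dynein adaptor and the channel of the mitochondrial outer membrane import complex. For Gja5 they were Aatk at 0.049, Plxdc1 at 0.066 and ENSMUSG00000030653, named Gm45837, at 0.070. Among the members, Cdh2 was nearest to their common mean, at 0.078, and Dsg2 and Ctnna3 were farthest, at 0.265 and 0.255.

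Because ZEB2 is known as a repressor that binds CACCT, the start regions of the genes were read for these letters. RefSeq promoters of GRCm38.p6, from 250 bases before to 50 bases after the start, were given for 5 of the 10 genes: 1 each for Gja1, Gja5, Dsp and Jup and 3 for Ctnna3. On either strand (it reads AGGTG on the opposite one), CACCT occurred in 51.9% of all 32851 promoters and in 4 of the 7 promoters of these genes. The longer motif CACCTG, also searched on both strands and containing the shorter one, occurred in 20.2% of all promoters and in 1 of the 7, that of Dsp. The 250 bases before the start are shown for the abundant members with a match, 1 from each of a connexin, a desmosomal linker and a catenin, as examples, 5′ to 3′ on the strand of the gene, with the shorter motif in capitals, in whichever direction it reads. The Gja1 stretch is chr10:56377050-56377299 (plus strand), the Dsp stretch chr13:38151044-38151293 (plus strand) and the Jup stretch chr11:100397791-100398040 (minus strand).
Gja1: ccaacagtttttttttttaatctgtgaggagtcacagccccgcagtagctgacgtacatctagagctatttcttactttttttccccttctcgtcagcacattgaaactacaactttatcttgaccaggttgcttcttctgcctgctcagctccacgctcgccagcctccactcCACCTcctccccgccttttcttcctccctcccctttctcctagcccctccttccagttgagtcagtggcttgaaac
Dsp: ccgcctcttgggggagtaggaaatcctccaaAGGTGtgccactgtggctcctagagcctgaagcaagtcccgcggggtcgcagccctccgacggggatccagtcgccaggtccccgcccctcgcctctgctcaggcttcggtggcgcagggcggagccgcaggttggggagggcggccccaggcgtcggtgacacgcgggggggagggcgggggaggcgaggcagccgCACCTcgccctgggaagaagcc
Jup: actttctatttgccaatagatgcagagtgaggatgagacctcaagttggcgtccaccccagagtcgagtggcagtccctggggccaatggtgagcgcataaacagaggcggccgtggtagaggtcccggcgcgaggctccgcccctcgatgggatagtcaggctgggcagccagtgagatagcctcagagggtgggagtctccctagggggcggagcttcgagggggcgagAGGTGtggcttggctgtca
Gja1 held its match at base -76 from the start, and Jup at -19. Dsp held matches at -219 and -22 and a further one at 5, just inside the gene, where the longer motif begins at 4. The promoter of Gja5 held none, and in Ctnna3 only the last of the 3 promoters held a match, at -146. With a match in 51.9% of all promoters, 4 of 7 is close to the background, and a match is a description of letters and not of binding.

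Overlapping or near-identical genes touched 4 of the 10 members. Besides Gja5, exons of Dsp overlap Gm10129 on the opposite strand over 5.17% of their bases, and exons of Dsg2 overlap Gm16090 over 3.99%, the latter with only 7 counts over all 6 libraries. A stretch of Gja1 equal to 2.08% of its longest transcript was near-identical to Reg1. For Gjc1, Cdh2, Pkp2, Jup, Dsc2 and Ctnna3 no such stretch was found.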

How the data were processed

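The data were 1 table of raw gene counts, deposited by the authors without normalization, for 6 libraries. According to the labels and the methods, total RNA was depleted of ribosomal RNA, prepared as stranded libraries and sequenced as single-end reads of 75 bases, and reads were aligned and counted by the authors with the STAR workflow on the Gencode M4 annotation (GRCm38). The STAR version, the strand option of the counting and the rule for multi-mapped reads are not given in the sources used here. The authors tested with DESeq, which was not used here. All columns were matched to samples (0 unmatched), and genotype and replicate were taken from the labels.

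From these counts, edgeR 4.0.16 (R 4.3.3, limma 3.58.1) with TMM, filterByExpr (minimum count 10) and the quasi-likelihood test was fitted to all genes, with Benjamini-Hochberg adjustment over the 14746 genes kept. A prior count of 0.125 entered the log2 fold changes. Names, exon lengths and coordinates came from Gencode M21 of the same build, since M4 was not used here, so TPM rests on M21 lengths and leaves out mitochondrially encoded genes. Ratios and values relative to markers used counts plus 0.5 and exact permutation tests over libraries (scipy 1.17.1), two-sided. Near-identical stretches were searched with BLAST 2.17.0 (at least 75 bases at 95% identity). Figures were drawn with matplotlib 3.10.9 (Python 3.11.15). At least 14301225 counts per library lay outside the mitochondrially encoded genes. Relative to the count, counting error is largest for Gja5, the member with the fewest reads. Precision also depends on the differences between mice, and the part of counting error in it was not tested. Each fit was first tested on simulated data.

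The members and lists were chosen with earlier results of these data known. The lists were the 5 disc lists (other connexins and pannexins, other desmosomal genes, adherens junction genes, scaffold and linker genes, ion channel complex genes) and 9 cell type marker lists. Genes named were the 10 members and Zeb2, from each disc list the 2 tested genes of smallest unadjusted p in each direction, and the 3 genes nearest in pattern to the members and to Gja5. Other genes are named as partners, as examples of a level, or where a count turned on them, after their values were seen. Alternatives covered normalization, filter, test (DESeq2 1.42.0), dispersions, replicate number, length, marker reference, offset and leaving out each library. The values without Nppa and the coefficients of variation without WT replicate 2 were added after the data were seen.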

Additional observations from a re-analysis of the deposited data

How the results depend on the processing

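No member passed an adjusted p of 0.05 under any alternative. Over all genes the count past it was 0 with edgeR under each alternative, beside 122 (without Zeb2 cKO replicate 1) to 1134 (without WT replicate 1) genes at an unadjusted p under 0.05 when a library was left out, and the DESeq2 Wald test called 1 gene, higher in Zeb2 cKO, beside 429 at an unadjusted p under 0.05. That gene is Slc46a2, which is no member. The replicate numbers do not pair the mice: the deviations of same-numbered libraries had correlations of 0.088, -0.137 and -0.087, and a fit with the replicate block called 0 genes, with 247 at an unadjusted p under 0.05 and no disc list gene among them.

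Leaving out 1 library at a time turned the sign of 9 log2 fold changes, with ranges of Gja1 -0.086 to 0.15, Gjc1 -0.079 to 0.25, Cdh2 -0.14 to 0.19, Dsp -0.14 to 0.39, Pkp2 -0.11 to 0.18, Jup -0.18 to 0.37, Dsg2 -0.16 to 0.44, Dsc2 -0.15 to 0.39 and Ctnna3 -0.36 to 0.13. WT replicate 2 turned 8 of these, and WT replicate 1 or Zeb2 cKO replicate 3 turned Ctnna3. Gja5 kept its sign, with a range of 0.12 to 0.53. The members without overlap in CPM numbered 0 to 2 lower (Cdh2 and Pkp2 without WT replicate 2) and 0 to 1 higher (Gja5 without Zeb2 cKO replicate 1), where between 5.09% and 12.1% of all tested genes did not overlap in a direction. Relative to the cardiomyocyte markers the number without overlap was 0 to 2, with Gja5, Ctnna3, or Cdh2 and Pkp2 separated without Zeb2 cKO replicate 1, 2 or 3 (1.45% to 14.7% of all tested genes in a direction), and it was 1 (Ctnna3, lower in Zeb2 cKO) with the median of the markers. Differences on this scale that turned sign ranged as Gja1 -0.32 to 0.012, Gjc1 -0.20 to 0.073, Dsp -0.045 to 0.075, Jup -0.18 to 0.11, Dsg2 -0.072 to 0.27 and Dsc2 -0.078 to 0.056. With the median of the markers Dsp was at -0.036, and with the 4 markers of highest TPM (chosen after the data were seen) Jup was at 0.0083 and Dsc2 at 0.019. Ratios without overlap numbered 0 to 2, namely Gja5/Gja1 without WT replicate 1 or Zeb2 cKO replicate 1 and Ctnna3/Cdh2 and Ctnna3/Ctnna1 without Zeb2 cKO replicate 2, and ratios that turned sign ranged as Dsc2/Dsg2 -0.32 to 0.026, Pkp2/Dsp -0.27 to 0.026, Jup/Cdh2 -0.033 to 0.20 and Jup/Ctnnb1 -0.16 to 0.41. With the longest transcript as length, Gja1, Cdh2, Pkp2, Jup and Ctnna3 were at 386.9, 228.5, 232.5, 212.7 and 74.48 TPM. The number of disc list genes at an unadjusted p under 0.05, 1 in the text, was 2 without the filter on low counts and 0 to 5 when a library was left out, 5 without WT replicate 2. Over all tested genes the number was 600 of 24115 without the filter and 393 of 14966 without WT replicate 2. Gja5 had the fewest reads of the members, but its standard error of 0.253 lay between the smallest (Gja1, 0.167) and the largest (Dsg2, 0.384). Depth as a limit was not tested.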
